A study of Sus scrofa with 14 samples.

Results

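TBX15, SHOX2, EN1, IRX1, IRX2, IRX3, IRX5, IRX6, TBX5 and SIM1 are 10 transcription factors that set position along the body during development and were listed by name for this account of subcutaneous fat. The expression tables held 21280 genes, and 9 of the 10 were found in them by the symbol of their Ensembl identifier. No identifier in the tables was paired with TBX15, so TBX15 is described here through the chromatin at its locus alone. All 10 genes were placed on the pig genome (build Sscrofa11.1) through their RefSeq start sites.

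The data came from adipose tissue of 4 female pigs aged 2 years, 2 wild boars (WB) brought into captivity young and 2 Bama pigs (BM), a small Chinese breed. A visceral depot, the greater omentum (GOM), and a subcutaneous depot, the upper layer of backfat (ULB), were sampled from each pig and measured by RNA-seq and by in situ Hi-C, which records contacts between stretches of chromatin. Of each assay, 7 libraries were analysed, namely 2 of WB-GOM, 2 of WB-ULB, 2 of BM-GOM and 1 of BM-ULB, which is replicate 2. The labels name no treatment, and the groups differ in breed and depot. RNA was taken from whole tissue, so that fewer cells of a type and less RNA per cell cannot be told apart, while nuclei for Hi-C came from the adipocyte layer that floats up on centrifugation, so that the assays do not sample the same mix of cells.

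T-box proteins (TBX15, TBX5), paired-type and engrailed homeobox proteins (SHOX2, EN1), Iroquois homeobox proteins (IRX) and the bHLH-PAS protein SIM1 bind DNA and hold the regional identity of cells long after the embryo has been patterned. Mesenchymal cells of adult fat keep part of this positional code, and depots that lie under the skin differ in it from depots inside the abdomen. TBX15, SHOX2 and EN1 are known in mouse and human fat as genes expressed more in subcutaneous than in visceral tissue, and the Iroquois genes sit in clusters, IRX1 with IRX2 and IRX3 with IRX5 and IRX6.

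The start sites of the 10 genes differed in base composition. The 300 bases around each RefSeq start site, 250 before it and 50 after it, were read from Sscrofa11.1 on the strand of the gene. The start site is the 5′ end of the annotated gene and was not checked against transcripts. Among the 10, the number of CpG dinucleotides in this window ranged from 2 to 52 with a median of 25.5, beside a median of 16 over 19506 RefSeq promoters of the same length. The windows of 3 genes are shown because they span this range, with IRX2 as the richest in CpG, EN1 between them and SHOX2 as the poorest. Capitals mark each CpG, and each sequence runs 5′ to 3′.

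IRX2 (chr16:78305619-78305918, plus strand, 52 CpG, 78.7% GC): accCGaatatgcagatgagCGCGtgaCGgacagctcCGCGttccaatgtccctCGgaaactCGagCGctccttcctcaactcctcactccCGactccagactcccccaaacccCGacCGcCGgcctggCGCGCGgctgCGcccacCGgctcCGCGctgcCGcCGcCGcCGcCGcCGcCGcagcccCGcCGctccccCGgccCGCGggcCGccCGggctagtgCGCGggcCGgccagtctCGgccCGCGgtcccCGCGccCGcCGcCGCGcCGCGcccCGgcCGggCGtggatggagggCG

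EN1 (chr15:24408328-24408627, minus strand, 33 CpG, 68.0% GC): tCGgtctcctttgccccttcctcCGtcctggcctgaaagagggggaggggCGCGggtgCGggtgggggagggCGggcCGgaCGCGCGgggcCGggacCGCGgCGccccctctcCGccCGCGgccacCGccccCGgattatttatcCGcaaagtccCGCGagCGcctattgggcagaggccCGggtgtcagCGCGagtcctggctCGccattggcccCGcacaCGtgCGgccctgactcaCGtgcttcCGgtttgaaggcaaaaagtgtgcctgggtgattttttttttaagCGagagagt

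SHOX2 (chr13:97892227-97892526, minus strand, 2 CpG, 33.3% GC): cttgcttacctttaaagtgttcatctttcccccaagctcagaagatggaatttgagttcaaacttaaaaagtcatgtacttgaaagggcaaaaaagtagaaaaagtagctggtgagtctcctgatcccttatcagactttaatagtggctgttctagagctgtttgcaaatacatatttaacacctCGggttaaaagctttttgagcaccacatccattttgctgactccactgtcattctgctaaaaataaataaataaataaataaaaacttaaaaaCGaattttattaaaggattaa

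The IRX2 window also holds the start site of C16H5orf38, an annotated gene that begins 0.123 kb away on the far side. The GC-box core GGGCGG was present, on either strand, in 5 of the 10 windows (EN1, IRX1, IRX2, IRX3 and SIM1), and in 50.6% of all RefSeq promoters. None of the 10 windows held the T-box half-site AGGTGTGA (0.759% of all promoters), the Iroquois-type palindrome ACANNTGT (5.18%), the homeodomain core TAATTA (4.11%) or the TATA box TATAAA (10.9%). Each motif was searched on both strands, and none is part of another.

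Every gene with a value was expressed more in ULB than in GOM, with no overlap between the depots. The summed TPM of the 9 genes (a level corrected for transcript length and library depth) lay between 2.63 and 11.0 in the GOM libraries and between 44.7 and 62.9 in the ULB libraries. In each of the 9, the lowest ULB library stood above the highest GOM library, a pattern found for 2.68% of the 17874 genes tested. In 6 of the 9 (EN1, IRX1, IRX2, IRX5, IRX6 and SIM1) the lowest ULB library was over 5 times the highest GOM library, against 0.218% of genes tested. IRX6 had no count in GOM, so any ULB level meets this rule for it. Genes were tested if their TPM was above 0.1 in every library of 1 or more groups. EN1, IRX2, IRX6, TBX5 and SIM1 passed this filter through ULB groups alone, which favours a lower level in GOM. For those genes the shares here and below are given as a description. A gene was called when the quasi-likelihood test of edgeR gave an adjusted p below 0.05 with an absolute log2 fold change above 1, with breed in the model. By this rule 8 of the 9 were called lower in GOM, where 1.29% of all genes tested were called lower and 2.29% higher (3.58% in all), and their median log2 fold change (GOM minus ULB) was -4.54 beside 0.02 over all genes tested. With IRX6 set at the limit that its counts allow, the median of the 9 was -4.52.

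**Figure D1:**
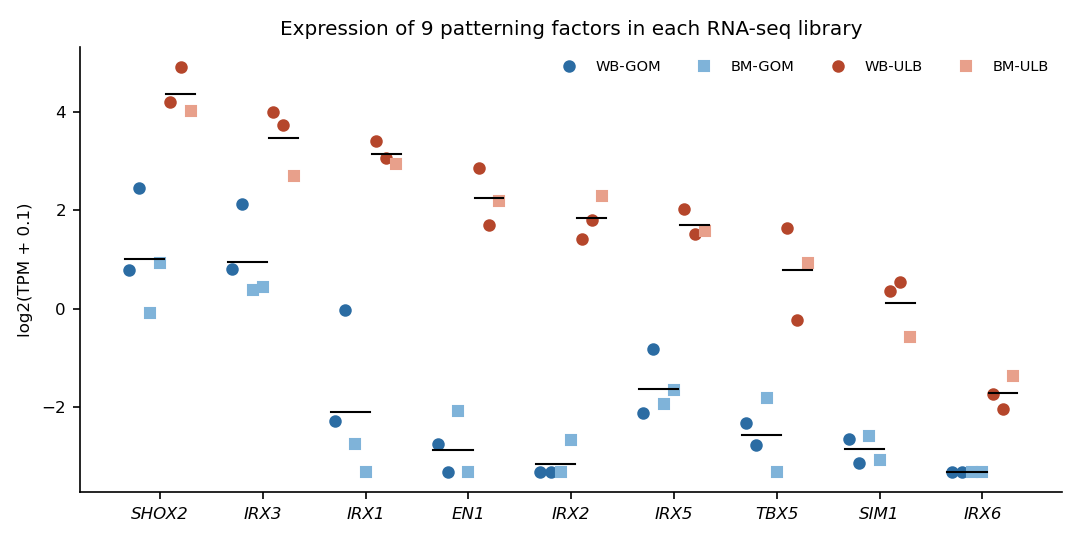
Level of 9 patterning factors, as log2(TPM + 0.1), in 7 RNA-seq libraries. Each point is a library (circles WB, squares BM; blue GOM, red ULB), bars are depot means, and for every gene the 3 ULB points lie above the 4 GOM points.

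SHOX2, a homeobox gene of limb and heart development that also acts in subcutaneous adipocytes, had the highest mean TPM of the 9 in both depots, within the spread of IRX3 in GOM. Its TPM in ULB was 18.3 in WB replicate 1, 29.9 in WB replicate 2 and 16.0 in BM replicate 2. In GOM it was 1.63 and 5.37 in WB replicates 1 and 2 and 0.839 and 1.79 in BM replicates 1 and 2. The highest GOM value, in WB replicate 2, was still below the lowest ULB value by a factor of 2.98. The log2 fold change (GOM minus ULB) was -3.11 (SE 0.53, adjusted p = 0.0100 by edgeR).

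EN1 (engrailed 1) marks the dorsal dermal lineage of the embryo and stood near zero in GOM. Its TPM was 0.0479 in WB-GOM replicate 1, 0.138 in BM-GOM replicate 1 and 0 in the other GOM libraries. In ULB it reached 7.12 and 3.16 in WB replicates 1 and 2 and 4.44 in BM replicate 2. The GOM libraries together held 4 estimated counts and the ULB libraries 296, a ratio of 111 per count sequenced (exact 95% interval 42.8 to 409, counting error only). The log2 fold change was -6.76 (SE 0.83, adjusted p = 0.00202 by edgeR).

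The Iroquois genes of the first cluster, on chromosome 16, were both near 0 in most GOM libraries. IRX1 had a TPM of 10.6 and 8.25 in WB-ULB replicates 1 and 2 and 7.54 in BM-ULB. In GOM, IRX1 had 0.107 and 0.882 in WB replicates 1 and 2, 0.0494 in BM replicate 1 and 0 in BM replicate 2. WB-GOM replicate 2 thus held most of the IRX1 RNA seen in the omentum, and the log2 fold change was -5.11 (SE 0.89, adjusted p = 0.0115 by edgeR).

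IRX2 had no count in 3 of the 4 GOM libraries and a TPM of 0.0574 in BM-GOM replicate 2, which rests on 1 estimated count. In ULB its TPM was 2.56 and 3.37 in WB replicates 1 and 2 and 4.82 in BM replicate 2, or 219 counts together. The ratio of ULB to GOM per count sequenced was 328 with an exact 95% interval from 58.2 to 12996. IRX2 had the lowest adjusted p of the 9 (0.000702 by edgeR).

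In the second Iroquois cluster, on chromosome 6, IRX3 was the most widely expressed. IRX3 lies beside FTO, and enhancers within FTO introns are known to act on IRX3 and IRX5 in adipocyte precursors. Its TPM was 16.0 and 13.1 in WB-ULB and 6.37 in BM-ULB, against 1.66 and 4.26 in WB-GOM and 1.20 and 1.26 in BM-GOM. The gap between the depots was the narrowest of the 9, since the lowest ULB value was 1.50 times the highest GOM value, and the log2 fold change was -2.33 (SE 0.42, adjusted p = 0.0147 by edgeR).

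IRX5 had lower levels than IRX3 in every library. Its TPM was 3.99 and 2.75 in WB-ULB and 2.87 in BM-ULB, and 0.130, 0.470, 0.160 and 0.218 in WB-GOM replicates 1 and 2 and BM-GOM replicates 1 and 2. The 4 GOM libraries all held IRX5 reads, so that the gene was low rather than undetected there, with a log2 fold change of -3.64 (SE 0.62, adjusted p = 0.0102 by edgeR). IRX6 was detected in ULB alone, at a TPM of 0.200, 0.145 and 0.286 in WB replicates 1 and 2 and BM replicate 2. Its 22 estimated counts in ULB beside 0 in GOM make it at least 11.0-fold higher in ULB, taking 3 counts over the GOM libraries as the limit that a count of 0 allows. IRX6 missed the edgeR threshold (adjusted p = 0.0589) and passed it with DESeq2 (adjusted p = 0.0495).

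TBX5, a T-box gene of the forelimb and heart, had a TPM of 3.02 and 0.750 in WB-ULB replicates 1 and 2 and 1.80 in BM-ULB. In GOM its TPM was 0.0990, 0.0459, 0.183 and 0 in WB replicates 1 and 2 and BM replicates 1 and 2. TBX5 thus had the widest ratio of highest to lowest ULB value among the 9, and the log2 fold change was -4.54 (SE 0.89, adjusted p = 0.0205 by edgeR). SIM1, known for its role in hypothalamic neurons and in the ventral limb, had a TPM of 1.19 and 1.35 in WB-ULB and 0.573 in BM-ULB. In GOM, SIM1 ranged from 0.0130 to 0.0673, and the log2 fold change was -4.52 (SE 0.65, adjusted p = 0.00475 by edgeR).

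The calls rested unequally on single libraries. Without the BM-ULB library, EN1, IRX2 and SIM1 were still called and SHOX2, IRX1, IRX3, IRX5 and TBX5 were not (edgeR adjusted p from 0.0954 to 0.148). IRX3 also lost its call without WB-ULB replicate 1, and TBX5 lost its call without WB-ULB replicate 1, WB-GOM replicate 1 or WB-GOM replicate 2. All 9 fold changes kept their direction in each of these fits. The log2 fold change of IRX1 moved from -5.11 to -7.24 without WB-GOM replicate 2 and to -3.95 without BM-ULB. Without WB-GOM replicate 2, SHOX2 moved to -3.91, IRX3 to -2.91 and IRX5 to -4.47, and without BM-ULB, SHOX2 moved to -2.48 and EN1 to -7.47. Without BM-GOM replicate 1, EN1 moved to -7.84 and TBX5 to -5.15, and TBX5 moved to -3.90 without WB-ULB replicate 1. DESeq2 called 9 of the 9, where it called 7.83% of all genes tested.

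Ordered by mean TPM in ULB, the genes ran from SHOX2 (21.4 ± 7.45, SD, n = 3) through IRX3 (11.8 ± 4.93), IRX1 (8.79 ± 1.59), EN1 (4.91 ± 2.02), IRX2 (3.58 ± 1.14), IRX5 (3.20 ± 0.682), TBX5 (1.86 ± 1.13) and SIM1 (1.04 ± 0.411) to IRX6 (0.210 ± 0.0711). The ranges of neighbours in this order overlapped except between SHOX2 and IRX3, between IRX1 and EN1 and between SIM1 and IRX6. Across the 7 libraries the 36 pairs among the 9 genes had Pearson correlations of log2(TPM + 0.1) between 0.768 and 0.981, with a median of 0.912. These points share the depot difference, and they are given as a description.

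Within wild boars, which have 2 libraries of each depot, EN1, IRX2 and SIM1 were called lower in GOM and the other 6 had an unadjusted p below 0.05 (edgeR, 16183 genes tested, 0.748% called lower in GOM and 21% with an unadjusted p below 0.05). The 3 calls do not hold over all libraries, since none of the 9 was called without WB-GOM replicate 1. Without WB-GOM replicate 2, SHOX2 and IRX1 were called instead, in a fit where WB-GOM was 1 library and was assumed to vary like WB-ULB.

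No gene of the 9 was called between the breeds. The breed test gave 75 calls among 17874 genes (0.42%), and of the 9, SHOX2 and IRX3 had an unadjusted p below 0.05, as did 21.6% of genes tested. The log2 fold change (WB minus BM) was 1.56 for IRX3 (SE 0.44, adjusted p = 0.122 by edgeR) and 1.34 for SHOX2 (SE 0.53, adjusted p = 0.189 by edgeR). DESeq2 called IRX3 (adjusted p = 0.0204) and none of the other 8, with 6.47% of all genes called. IRX1 and IRX3 were higher in each WB library than in each BM library within both depots, as were 2.67% of genes tested. EN1 had a log2 fold change of -0.16 (SE 0.79), and that of TBX5 was 0.00 and ran from -0.72 to 0.47 when a library was left out. In ULB, where BM is 1 library, it lay within the WB range for EN1, IRX5 and TBX5, above it for IRX2 and IRX6, and below it for SHOX2, IRX1, IRX3 and SIM1. Of 8 liver markers, 4 were called lower in WB (ALB, APOB, FGB and AHSG). TTR, TF, SERPINA1 and APOA1 were not called between breeds, with log2 fold changes (WB minus BM) of -3.70, -0.14, -2.60 and 0.39. ALB, for instance, had a TPM from 77.7 to 873 in the BM libraries and from 1.95 to 6.60 in the WB libraries, and its part in the breed values was not tested.

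In GOM alone, 4 of the 9 genes passed the filter on low values (TPM above 0.1 in both libraries of a breed) and 0 were called, with 4 of 16615 genes called in all (0.0241%). At an unadjusted p below 0.05, edgeR gave 3 of these 4 beside 8% of genes tested, with log2 fold changes (WB minus BM) of 4.51 for IRX1 (SE 1.51), 2.05 for SHOX2 (SE 0.83) and 1.91 for IRX3 (SE 0.76). IRX1 passed the filter through WB alone (TPM 0.107 and 0.882, beside 0.0494 and 0 in BM), which favours a higher level in WB. For IRX1 the fold change is given as a description. DESeq2 called 0 of the 4 and 1.01% of all. All these values lean on WB-GOM replicate 2, the highest of the 4 GOM libraries for SHOX2, IRX1, IRX3 and IRX5, as it was for 7.24% of genes tested. When WB-GOM replicate 1 was left out, so that replicate 2 alone stood for WB and was assumed to vary like the BM libraries, IRX1 was called.

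The depot difference was not shown to depend on breed. The interaction of breed and depot gave 0 calls among 17874 genes with edgeR (0%) and 869 at an unadjusted p below 0.05 (4.86%), and DESeq2 gave 52 (0.291%). Of the 9 genes, IRX1 had an unadjusted p below 0.05 (0.0282, adjusted p = 0.970 by edgeR), with a depot difference larger in BM than in WB by 4.27 on the log2 scale (SE 1.64). BM-ULB is 1 library in this test.

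Marker genes of other cell types moved with depot beside these 9 genes. The 10 adipocyte markers had none called and overlapping sums, 10184 to 18647 TPM in GOM and 14381 to 18173 in ULB, so that both depots carried adipocyte RNA. Of 5 mesothelial markers with values, WT1, KRT8 and BNC1 were called higher in GOM. KRT18 and CALB2 were not called (0.13, SE 0.82, and 1.50, SE 1.64), and CALB2 was at 0 in WB-GOM replicate 2 and in BM-GOM. The summed TPM of the 5 was 119 to 466 in GOM, of which KRT8 made up 89.2 to 363. In ULB the sum was 3.48 to 20.4, and BNC1 was at 0 in both WB libraries. WB-GOM replicate 2, where 4 of the 9 patterning genes were highest among GOM libraries, had the lowest mesothelial sum of the omentum, 119. Progenitor and fibroblast markers summed to 3124 to 4222 TPM in GOM and 4783 to 8047 in ULB. PI16 was called, higher in GOM, and the other 7 genes of that list were not. Of these, COL1A1 had a log2 fold change of -2.07 (SE 0.61, adjusted p = 0.0949 by edgeR). COL3A1, PDGFRB and DCN were also below 0 (-1.24, -0.94 and -0.43). PDGFRA was above 0 (0.93, SE 0.28, adjusted p = 0.104 by edgeR), as were DPP4 (0.71) and LUM (0.31). The median of the list was -0.06. Skeletal muscle markers were at 299 TPM in WB-ULB replicate 1 and between 3.52 and 6.82 elsewhere. The 7 skin and epithelial markers with values summed to 3.25 to 10.5 in ULB and 17.8 to 35.3 in GOM. Most of the GOM sum was CDH1, called higher in GOM, at 15.8 to 31.0 TPM against 0.364 to 4.87 in ULB. EPCAM went the other way and was not called (-1.46, SE 0.63). KRT10, KRT15 and DSG3 were not called either (0.29, -0.17 and 1.98). Endothelial markers summed to 457 to 696 in GOM and 467 to 639.5 in ULB and macrophage markers to 536 to 1263 and 389 to 585, with none called, and lymphocyte markers to 42.2 to 62.7 and 22.3 to 28.9, with CD2 called higher in GOM. The part of these cell types in the depot difference was not tested.

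Other members of the same gene families were read from the same fit. Of 20 listed relatives, 12 passed the filter and 1 was called (3.58% of all genes tested were), MKX (mohawk, an Iroquois-related factor of tendon and fascia), with a log2 fold change of -3.26 (SE 0.72, adjusted p = 0.0363 by edgeR). Their median was -0.11. TBX3, the gene next to TBX5, had a TPM of 3.58 to 11.0 in GOM and 2.46 to 4.52 in ULB and was not called (0.83, SE 0.36, adjusted p = 0.231). IRX4, the neighbour of IRX2 on the far side from IRX1, was at 0 in 6 of the 7 libraries.

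Positional factors of other families were called in both directions. Among 26 tested, 4 were called lower in GOM and 3 higher (1.29% and 2.29% of all genes tested were), with a median log2 fold change of -0.18. ZIC1 and ZIC4, neighbouring zinc finger genes of the dorsal midline, were at 0 in all 4 GOM libraries. ZIC1 had a TPM of 23.0, 12.1 and 2.59 in WB-ULB replicates 1 and 2 and BM-ULB, at least 287-fold higher, and ZIC4 had 2.90, 0.841 and 0.618, at least 83.3-fold higher (edgeR adjusted p = 0.00153 and 0.0100). PRRX1, a marker of limb and trunk mesenchyme, had 37.5 to 73.3 TPM in ULB and 4.36 to 8.42 in GOM (log2 fold change -3.21, SE 0.33) and EMX2 had a log2 fold change of -5.01 (SE 0.84). In the opposite direction, MEIS1 was higher in GOM by 2.37 (SE 0.29) on the log2 scale, and HAND2, a factor of visceral mesenchyme, by 5.65 (SE 0.82). BARX1, which patterns the stomach mesenchyme, had 1.79 to 8.28 TPM in GOM and 0 to 0.0808 in ULB (adjusted p = 0.00361 by edgeR). ZIC1 and ZIC4 passed the filter on low values through ULB groups alone, and HAND2 and BARX1 through GOM groups alone. The filter thus favours the direction seen in these genes, and for them the shares are given as a description.

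Of 16 tested partners and pathway genes, 2 were called lower in GOM and 3 higher (1.29% and 2.29% of all genes tested were). FGF10, a limb and fat growth factor that T-box proteins regulate in the limb, had 14.2 to 64.0 TPM in ULB and 0.725 to 1.25 in GOM (log2 fold change -5.32, SE 0.46, adjusted p = 0.000314 by edgeR). ARNT, a partner of SIM1 in binding DNA, was lower in GOM by a log2 fold change of -1.18 (SE 0.25). GREM1, a BMP antagonist (3.75, SE 0.87), and TLE1, a corepressor that engrailed proteins recruit (1.65, SE 0.38), were higher in GOM. So was NKX2-5, the cardiac partner of TBX5, at 0.389 to 0.944 TPM in GOM and 0 to 0.0543 in ULB. NKX2-5 passed the filter through GOM groups alone, which favours a higher level in GOM.

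**Figure D2:**
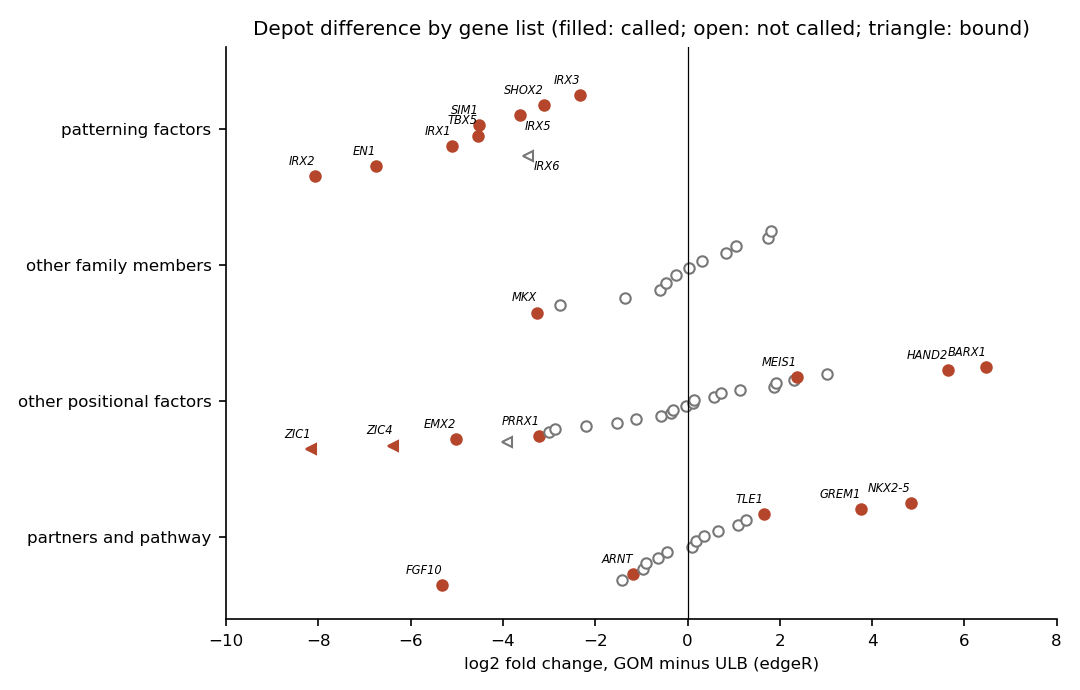
Log2 fold change (GOM minus ULB, edgeR) of every tested gene in the patterning set and 3 related lists. Filled symbols are called and open ones not, triangles are limits for genes at 0 in all GOM libraries, and the patterning factors lie left of 0 while the related lists straddle it.

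The genes whose pattern over the 7 libraries was most like that of a patterning factor were searched among 11511 genes with a symbol and a mean TPM of at least 1, by Pearson correlation of log2(TPM + 0.1). PRRX1 was the closest to EN1 (r = 0.998) and TBX5 (0.986). RXFP2 was the closest to IRX2 (0.985), MLIP to IRX5 (0.992), ENTPD8 to IRX6 (0.995) and CFAP161 to SIM1 (0.990). MLIP (0.994), CRYM (0.986) and FOXP2 (0.985) were closest to the mean of the standardized profiles, and CRYM had 52.0 to 58.4 TPM in ULB and 1.01 to 3.36 in GOM. All these profiles share the depot difference over the same 7 libraries.

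The compartment value at the start sites was compared next, to see how the chromatin of these genes differed between depots. Each 20-kb bin had a deposited score under the name A-B index, read here as the first principal component (PC1) of the contact matrix. Positive values were taken to stand for the open A compartment and negative values for the closed B compartment. The PC1 in the bin of the start site was lower in GOM than in ULB for 9 of the 10 genes, and 3 of the 10 were called by limma over all 113298 autosomal bins (TBX15, EN1 and IRX5). Among start site bins of all RefSeq genes, 0.38% were called lower in GOM, and among all bins 1.28% were.

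TBX15, which had no expression value, had the largest difference of the 10. Its PC1 was 14.4 and 4.72 in WB-ULB replicates 1 and 2 and 5.40 in BM-ULB, and -9.52, -22.2, -19.6 and -19.1 in WB-GOM replicates 1 and 2 and BM-GOM replicates 1 and 2. The bin was thus in A in all ULB libraries and in B in all GOM libraries, a pattern shared by IRX1 and by 0.23% of start site bins. The difference (GOM minus ULB) was -25.1 (SE 3.70, adjusted p = 0.0240 by limma). Around the TBX15 start site, ULB libraries lay above GOM libraries without overlap over 1720 kb on chromosome 4 (101300001 to 103020000), and 67 of the 101 bins within 1000 kb on either side were called lower in GOM.

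EN1 was in A in all 3 ULB libraries, with PC1 values of 26.6, 21.5 and 24.7. In GOM it lay near 0, at 4.00 and 5.03 in WB and -2.77 and -3.52 in BM. The depots did not overlap, and the difference was -22.9 (SE 2.85, adjusted p = 0.0196 by limma). The stretch without overlap around EN1 spanned 240 kb (24240001 to 24480000 on chromosome 15), and 16 of the 101 bins within 1000 kb on either side were called lower in GOM.

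In the Iroquois cluster on chromosome 6, IRX5 was called and IRX3 and IRX6 were not. IRX5 had PC1 values of 9.34 and -1.84 in WB-ULB and 5.10 in BM-ULB, and of -12.5 to -19.6 in GOM, and its difference was -19.6 (SE 3.37, adjusted p = 0.0297 by limma). IRX6 was in B in every library, at -3.96 to -12.7 in ULB and -20.0 to -28.2 in GOM (-14.9, SE 3.30, adjusted p = 0.0532). IRX3 had 14.7, 5.89 and 0.253 in ULB and from 1.50 to -12.4 in GOM, which overlapped (-12.7, SE 3.31, adjusted p = 0.0777). IRX5 and IRX6 lay in the same stretch of 860 kb without overlap between depots (30160001 to 31020000), which ends before the bin of IRX3, and 25 bins were called in it, between 30240001 and 31020000.

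**Figure D3:**
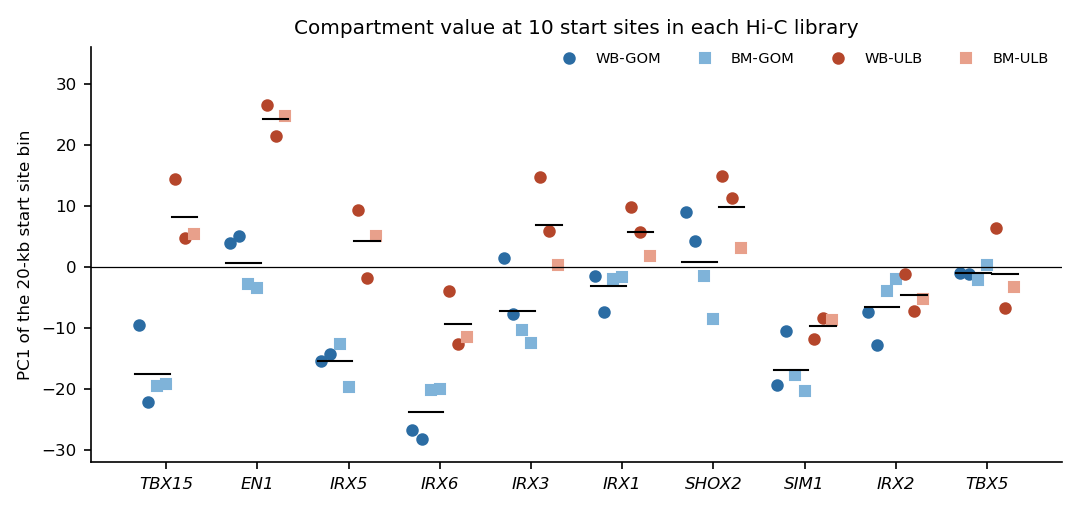
PC1 of the 20-kb bin that holds each start site, in 7 Hi-C libraries (circles WB, squares BM; blue GOM, red ULB; bars are depot means). The ULB points of TBX15, EN1, IRX5, IRX6 and IRX1 lie above all GOM points, and those of TBX5 straddle them.

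The remaining loci differed less. IRX1 was in A in ULB (9.74, 5.68 and 1.78) and in B in GOM (-1.48, -7.43, -2.05 and -1.69), with a difference of -8.76 (SE 3.00) that did not pass the test (adjusted p = 0.146 by limma). SHOX2, called in expression, had overlapping PC1 values of 3.14 to 14.9 in ULB and -8.47 to 8.92 in GOM (-7.12, SE 2.87, adjusted p = 0.201 by limma). SIM1 was in B throughout (-7.04, SE 3.06), IRX2 was in B throughout (-2.65, SE 3.08), and TBX5 did not differ beyond its error (0.386, SE 3.39). EN1, IRX1, IRX5 and IRX6, together with TBX15, were the 5 of 10 whose depots did not overlap, against 5.51% of start site bins.

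These calls depend on few libraries. No bin of the 10 was called when BM-GOM replicate 2, BM-ULB replicate 2 or WB-ULB replicate 1 was left out. The same held with breed and replicate number together as a block, and EN1 alone was called without BM-GOM replicate 1. IRX5 also lost its call without WB-GOM replicate 1 or 2. Averaging the start site bin with 2 bins on each side called 6 of the 10, adding SHOX2, IRX3 and IRX6. This setting called 9199 of 113298 bins in either direction, beside 2609 without averaging.

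**Figure D4:**
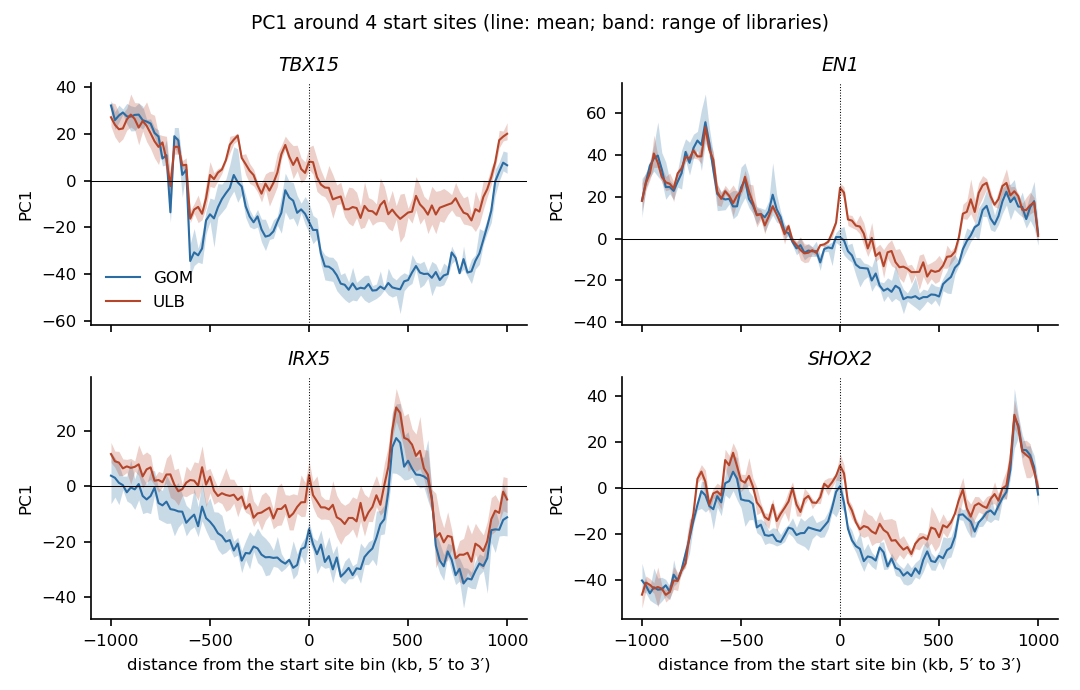
PC1 within 1000 kb of the start sites of TBX15, EN1, IRX5 and SHOX2, plotted against distance in the direction of transcription. Lines are depot means, bands the range of libraries, and the depots separate on both sides of TBX15 and IRX5 and at and downstream of EN1, with fewer bins called around SHOX2 (8 of 101).

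Between breeds, 0 of the 10 start site bins were called, with 11 of 113298 bins called in all (0.00971%) by limma. At an unadjusted p below 0.05, there were 2 of the 10 bins, beside 12.1% of all bins, namely SHOX2 (WB minus BM 10.9, SE 2.87, adjusted p = 0.250) and IRX3 (8.98, SE 3.31, adjusted p = 0.340). The interaction of breed and depot gave 0 called bins (0%), with 7208 bins (6.36%) and none of the 10 at an unadjusted p below 0.05.

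Topologically associating domains (TADs), stretches of chromatin that contact themselves more than their surroundings, were listed once per breed and depot on merged replicates, so that the 4 lists have no replicate check. An edge was counted as at a start site when it lay within 40 kb. Such an edge was present in all 4 lists at TBX15, EN1, IRX1 and IRX6, as at 21.5% of RefSeq start sites, and in none at TBX5 and SIM1. SHOX2 and IRX3 had an edge in both GOM lists and neither ULB list (1.46% of start sites), and IRX5 in both ULB lists and neither GOM list (2.07%). IRX2 had an edge in both BM lists and in neither WB list. With a tolerance of 20 kb, none of the 10 had an edge in all 4 lists, and EN1 joined SHOX2 and IRX3 with an edge in the GOM lists alone.

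At the chromosome 6 cluster the TADs of the depots were cut at different genes. In GOM a TAD from 30180001 to 31020000 (WB) or 31040000 (BM) held IRX6 and IRX5, and IRX3 lay just past its end. In ULB a TAD from 30180001 to 30500000 held IRX6, IRX5 lay in the gap after it, and a TAD from 30520001 to 31720000 held IRX3, in both breeds. IRX3 and IRX5 start sites are 530 kb apart. At SHOX2 on chromosome 13, the TAD began at 97880001 in both GOM lists, 12.3 kb downstream of the start site, while in ULB the TAD ran from 97380001 to 98320000 in WB and from 97420001 to 98300000 in BM, so that SHOX2 lay in its interior.

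At TBX15 the start site fell on different sides of an edge. In GOM it lay at the end of a TAD of 660 kb that closed at 101920000 in WB and 101940000 in BM. In ULB it lay at the beginning of a TAD from 101880001 to 102800000 that holds the whole gene. The edges are 2 or 3 bins apart, near the tolerance of 40 kb. With edges matched within 40 kb, EN1 and TBX5 kept both edges of their TAD in all 4 lists, 2 of the 7 genes that lay inside a TAD in every list, beside 50.3% of RefSeq genes that did.

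**Figure D5:**
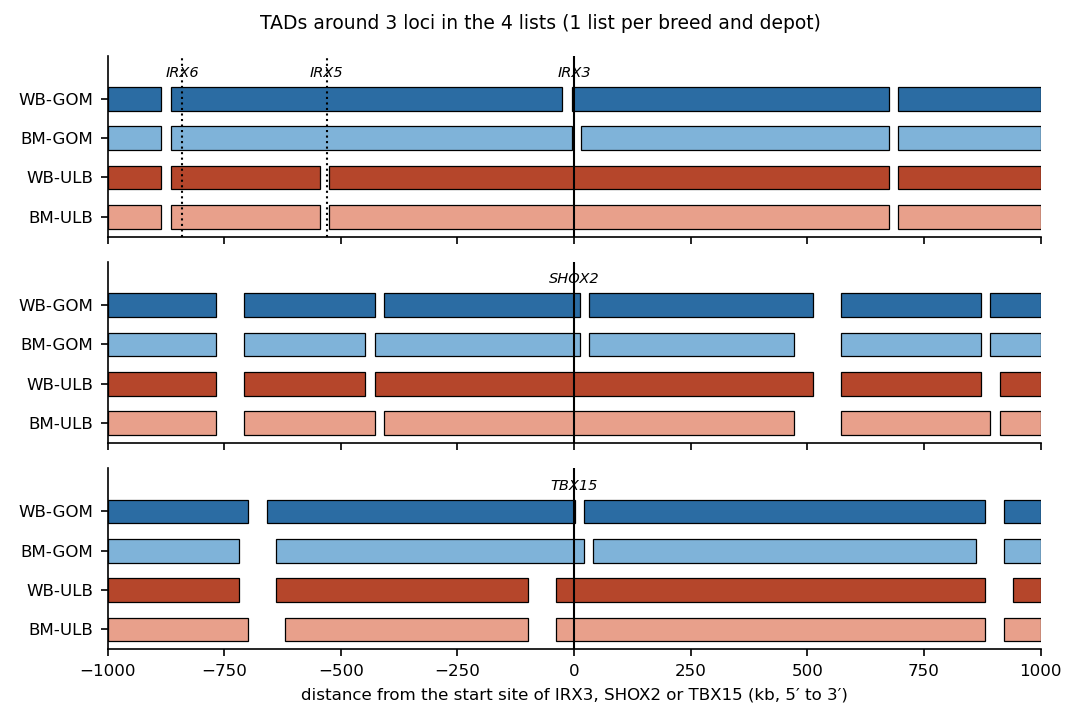
TADs in the 4 lists (blue GOM, red ULB) within 1000 kb of the start sites of IRX3, SHOX2 and TBX15, with vertical lines at start sites. The GOM lists break at IRX3 and SHOX2 where the ULB lists do not, the ULB lists break at IRX5, and at TBX15 the start site falls in the upstream TAD in GOM and in the downstream TAD in ULB.

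Genes beside these loci were read from the same depot fit. Of 26 genes with a start site within 500 kb, 15 were tested and 3 called (3.58% of all genes tested were), 2 lower and 1 higher in GOM, with a median log2 fold change of -0.18. PHGDH, an enzyme of serine synthesis 441 kb from TBX15, was lower in GOM (-3.20, SE 0.32, adjusted p = 0.000660 by edgeR), at 1.44 to 5.98 TPM against 14.3 to 61.9 in ULB. MMP2, a matrix protease 118 kb from IRX6, was lower in GOM (-1.97, SE 0.39, adjusted p = 0.0206 by edgeR). MARCO, a macrophage scavenger receptor 94.6 kb from EN1, was higher in GOM (5.18, SE 0.94, adjusted p = 0.0144 by edgeR), at 3.48 to 63.4 TPM against 0.281 to 0.627, opposite in direction to EN1.

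Of the nearest neighbours with a value, MARCO and MMP2 were called as given above, and those that follow were not. RSRC1, whose start site is 1.54 kb from that of SHOX2, had 43.5 to 66.2 TPM in GOM and 48.2 to 65.5 in ULB (-0.18, SE 0.27, adjusted p = 0.745 by edgeR). FTO, the neighbour of IRX3, was expressed at 22.4 to 48.7 TPM in GOM and 15.9 to 26.6 in ULB (0.70, SE 0.30, adjusted p = 0.228 by edgeR). HAO2, the nearest gene with a value to TBX15, and ASCC3, beside SIM1, had log2 fold changes of -0.20 (SE 0.47) and 0.00 (SE 0.28).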

How the data were processed

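RNA-seq and Hi-C values of 14 libraries, 7 per assay, were used. Group and replicate came from the sample titles. Per the labels, Kallisto 0.43.0 gave the authors an estimated count and a TPM for each protein-coding gene in each library. The authors also deposited a score per 20-kb bin and library under the name A-B index. It has a mean of 0 on each chromosome and was read as PC1, and the test written for it was kept. The authors deposited TAD coordinates called on merged replicates, on Sscrofa11.1. Total estimated counts per RNA-seq library ran from 10833153 to 18627076, so that a gene at 0 could lie below 0.161 to 0.277 CPM (3 counts). The deposited Hi-C scores carry no depth. RNA came from whole tissue, and adipocyte markers were present in all RNA-seq libraries, while nuclei for Hi-C came from the floating adipocyte layer.

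Counts were rounded, a gene was kept if all libraries of 1 or more groups exceeded 0.1 TPM, and edgeR 4.0.16 (TMM, quasi-likelihood F test, breed and depot as terms), limma 3.58.1 on PC1 and Benjamini-Hochberg adjustment over all features were run in R 4.3.3, with DESeq2 1.42.0 as an alternative. The scripts were tested on simulated data. The SE beside an edgeR log2 fold change was derived as the absolute fold change divided by the square root of F. It is an approximation and is unreliable where the fold change is near 0. Exact binomial intervals and the 3-count limit cover counting error only. Ensembl identifiers were matched by symbol, and 14821 of 21280 had a symbol. Of the RefSeq annotation, 18 of 18 autosome lengths equal those of the Hi-C values. Each library is 1 pig and depot, and both depots came from the same 4 pigs, but that a replicate number marks a pig is not stated in the sources used here.

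The genes and lists were chosen with earlier results of these data known. The text names all 10 listed genes, genes of each related list called in the depot or breed fit with markers as a check, the genes most alike in pattern, and called or nearest neighbours. The closest genes to SHOX2, IRX1 and IRX3 are not reported here. Alternatives were other filters, scalings and tests, the replicate block and leaving out each library. Libraries of replicate 1 of BM-ULB were not analysed here.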

Additional observations from a re-analysis of the deposited data

Results flagged for a closer look

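In a group of 4 libraries, a highest or lowest value that stands far from the other 3 by Dixon's criterion was singled out. Chance alone does this for about 1 group in 20, and 19 groups were tested. IRX2 met this in GOM, where BM-GOM replicate 2 had a TPM of 0.0574 and the other 3 libraries were at 0. That value is 1 estimated count, and with the other 3 at 0 any value above 0 meets the criterion. IRX1 met it for PC1 at its start site, where WB-GOM replicate 2 had -7.43, the lowest of the 4 GOM libraries, and the other 3 lay between -1.48 and -2.05. The same breed, depot and replicate number had the highest IRX1 level of the omentum in RNA-seq, 0.882 TPM, and no relation of these values was tested.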

How the results depend on the processing

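Of 9 patterning genes, the number called lower in GOM was 7 to 9 under every other filter, scaling and test and 3 to 8 when a library was left out. IRX6 passed with DESeq2 (log2 fold change -5.65), and SIM1 fell under the fold threshold with log2(TPM + 1). Over all genes, depot calls went from 640 to 1399 with DESeq2, 329 with limma on log2(TPM + 1), 999 without the filter and 230 to 657 on leaving out a library. Breed calls went from 75 to 1157 with DESeq2, 137 and 35 with limma on log2(TPM + 0.1) and log2(TPM + 1), 503 without the filter and 1 to 1806 on leaving out a library, of which BM-GOM replicate 2 gave the highest and BM-ULB replicate 2 the lowest. Of the patterning genes, DESeq2 called 1 between breeds. The small breed differences of EN1 and TBX5 turned positive, to 0.0028 for TBX5 with DESeq2 and 0.0029 for EN1 with limma on log2(TPM + 1), and on leaving out a library they ran from -1.05 to 0.29 for EN1 and from -0.72 to 0.47 for TBX5. The interaction gave 52 calls with DESeq2, 237 and 293 with limma on both log scales, 7 without the filter and 0 to 1 on leaving out a library, and it could not be fitted without BM-ULB replicate 2. Depot calls in wild boars went from 318 to 1318 with DESeq2 and 608 without the filter, and to 44 to 227 on leaving out a library, with 8, 5 and 0 to 2 patterning genes called and 5 with limma on log2(TPM + 1). Breed calls in GOM went from 4 to 167 with DESeq2, 2 and 0 with limma on both scales, 26 without the filter and 0 to 123 on leaving out a library, with 0 to 1 patterning gene called.

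PC1 depot calls went from 2609 bins to 9199 with 5-bin means, 997 by sign alone and 0 to 700 on leaving out a library, with 5 patterning genes called after centring on the chromosome median, 6 with 5-bin means and 0 to 3 on leaving out a library. The PC1 difference of TBX5 turned negative with 5-bin means (-0.229) and ran from -2.52 to 3.98 on leaving out a library. PC1 breed calls went from 11 bins to 22 after centring, 22 with 5-bin means, 173 by sign alone and 6 to 1523 on leaving out a library, the highest without BM-ULB replicate 2. The cause of these shifts was not tested.

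Same-numbered wild boar GOM and ULB libraries had deviations that correlated at 0.190 in RNA-seq (14163 genes) and 0.0244 in PC1, with only 2 numbers to compare, so the numbers were not taken to pair the samples. As an alternative, the depot and interaction fits took each breed and replicate number as a block, and the other fits the replicate number. BM-GOM replicate 1 has no ULB library of its number here, so it did not add to the blocked depot difference. With these blocks, the patterning genes called by depot stayed at 8 of 9. Depot calls in wild boars were 1623 with 8 patterning genes, interaction calls 581 and breed calls in GOM 15. PC1 depot calls were 0 bins and 0 patterning genes. Other calls did not move by over 1.5 times under the block. The number of shared TADs and of called neighbours kept within 1.5 times at every tolerance and window tried, while genes with an edge in all 4 lists went from 4 to 0 at 20 kb. Low counts limit IRX6, IRX2, EN1, TBX5 and SIM1 in GOM, and 1 BM-ULB library limits the breed and interaction tests. Low counts also limit IRX1, with 2.1 and 21.2 estimated counts in WB-GOM replicates 1 and 2 and 1 and 0 in BM-GOM. IRX5 is limited likewise, with 3.1 to 13.7 in the GOM libraries.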
